A study of Mus musculus with 22 samples.

Results

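Expression was compared between fetal liver haematopoietic stem cells cultured for 10 h and for 4 h under block of gamma-secretase. Members, here arrays, were taken by their sample titles: the 4 titled 10 h and the 7 titled 4 h with the inhibitor. They are 11 of the 22 arrays of the series, and earlier results of these data were known at the choice. Liver cells of wild-type C57Bl/6J embryos at E14.5 had been cultured on OP9-DL1, a mouse bone marrow stromal line that displays the Notch ligand Dll1, with gamma-secretase inhibitor (GSI, 1 µM) or with its solvent, DMSO. SLAM LSK cells were sorted after the culture, and their RNA was measured on 1-colour arrays. LSK stands for lineage-negative, Sca-1-positive, Kit-positive, and SLAM for gating on surface receptors of the SLAM family, which usually takes CD150 (Slamf1) and leaves out CD48. The other 11 arrays are DMSO cultures of the same replicates, 7 at 4 h and 4 at 10 h, and serve below to set the change over time in GSI against that in solvent. All groups share the strain, the age, the stroma and the sort. The stroma is of the same species as the sorted cells, so its RNA is read by the same probes, and how many embryos went into a replicate is not given in the labels.

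Notch receptors are cut by gamma-secretase after a ligand on a neighbouring cell has pulled on them, and the freed intracellular part joins Rbpj in the nucleus and switches on targets such as Hes1. In the fetal liver, stem cells divide and expand, in contrast to the mostly quiescent stem cells of adult marrow. Dissection, dissociation and the first hours of culture are known to switch on immediate-early genes, a set of transcription factors and feedback regulators that need no new protein to be transcribed and whose messages decay within hours. An array of sorted cells reads all RNA that was in the sort, from the stem cells and from any other cell that passed the gate or stuck to it. Fewer cells of a type and less RNA per cell cannot be told apart in such samples.

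Time and run cannot be told apart here. Codes in the sample descriptions place the 4 h GSI replicates in 3 runs (replicate 1, replicates 2 and 3, replicates 4 to 7) and those at 10 h in another 2 (replicates 1 and 2, replicates 3 and 4), and no run holds both times. The labels do not explain these codes. The deposited log2 values had medians of 5.05 to 5.11 at 4 h and 4.45 to 4.48 at 10 h, so the 11 arrays were quantile normalized together, after which every array had a median of 4.86 over all probes. This step sets the overall level of both times equal, and every change below is relative to it. The correlation between arrays over the 22180 genes was 0.979 to 0.990 within 10 h, 0.939 to 0.991 within 4 h and 0.898 to 0.973 between the times. Replicate 6 at 4 h stood apart: its score on the first principal component (55.6% of the variance) was -72.5, against -42.1 to 1.21 for the other 4 h arrays and 37.8 to 62.6 for the 10 h arrays. Levels below are log2 values, changes are 10 h minus 4 h in GSI on the log2 scale with their standard errors, and a gene was called when the limma adjusted p was under 0.05.

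The longer culture went with a broad change. At 10 h 4227 genes (19.1% of 22180) were higher and 3777 (17%) were lower, and 10224 genes had an unadjusted p under 0.05. The median change over all genes was 0.03. All 10 h values lay above all 4 h values for 2820 genes (12.7%) and below them for 2420 (10.9%). The shares of all genes given here are the background for every list count below. The falls were the larger changes: 953 called genes fell more than 2-fold and 270 rose more than 2-fold. Without replicate 6 of 4 h, 4263 genes were higher and 3772 lower, and 7528 of the calls were shared with those of all 11 arrays. With the run as a random block, 3397 were higher and 3050 lower. Averaging each run to 1 value, which left 3 values against 2, gave 1413 higher and 1232 lower. The division into higher and lower rests on the normalization: centring each array on its median gave 8345 higher and 2930 lower, and the deposited values taken as they are gave 471 higher and 14424 lower.

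**Figure D1:**
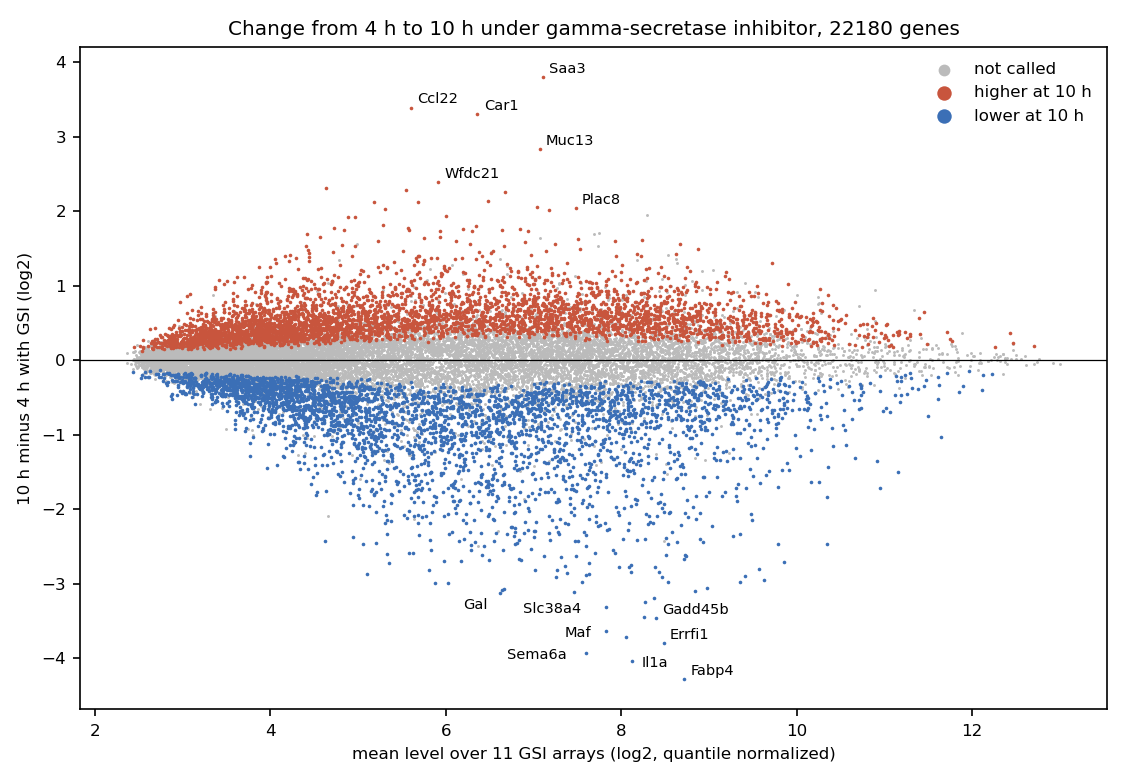
Change from 4 h to 10 h in GSI (log2, vertical axis) against the mean level over the 11 GSI arrays (log2, horizontal axis) for 22180 genes, 1 point per gene, with the 4227 higher genes in red, the 3777 lower genes in blue and 14 of the leading genes named. Falls reach -4.28 (Fabp4) and rises 3.80 (Saa3), and points below -2 are more frequent than points above 2.

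Several of the largest rises were in genes known for secreted and surface proteins of immune cells. The leading rises and falls were picked from called genes whose groups did not overlap. A low p and a lack of overlap were thus set by the choice. Saa3 (Entrez 20210, chromosome 7), an acute-phase serum amyloid protein made by many activated cells, read 9.35, 9.25, 10.1 and 9.41 at 10 h, against a lowest value of 4.64, a median of 5.98 and a highest of 6.34 at 4 h. The change was 3.80 ± 0.33, a 14.0-fold rise (limma adjusted p = 1.6e-05). Ccl22 and Ccl17 are neighbouring chemokine genes on chromosome 8 whose products bind the receptor Ccr4. Ccl22 read 7.21, 8.06, 8.22 and 7.55 at 10 h and 3.60 to 6.35, with a median of 3.86, at 4 h; it rose by 3.40 ± 0.47. Ccl17 read 5.27 to 6.59 at 10 h and 3.48 to 4.15 at 4 h and rose by 2.32 ± 0.21. Ccr7, the chemokine receptor that guides cells to lymphoid tissue, read 7.25, 7.42, 6.55 and 6.80 at 10 h against 4.22 to 5.03 at 4 h. It rose by 2.29 ± 0.18 (limma adjusted p = 9.1e-06).

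Other leading rises were in genes known from blood progenitors and their progeny. Car1 (Entrez 12346, chromosome 3), a carbonic anhydrase abundant in erythroid cells, read 8.65, 8.02, 8.55 and 8.64 at 10 h and 4.37 to 6.03, with a median of 5.08, at 4 h, a rise of 3.31 ± 0.27. Muc13, a transmembrane mucin, read 8.40, 8.31, 9.55 and 9.24 at 10 h and 5.54 to 7.04 at 4 h, a rise of 2.84 ± 0.30. Plac8, a small protein of myeloid cells and progenitors, rose by 2.05 ± 0.37 from a 4 h median of 6.81, with 7.80 to 9.43 at 10 h. Cd48, the SLAM-family receptor that the usual sort leaves out, read 6.88, 6.66, 7.14 and 7.44 at 10 h and 4.31 to 6.11, with a median of 4.70, at 4 h. Its RNA rose 4.35-fold (change 2.12 ± 0.31, limma adjusted p = 0.00043), although cells of both times had been gated after the culture. Wfdc21, Parm1, Kcnab2 and Ube2l6 completed the 12 leading rises, with changes of 2.39, 2.15, 2.13 and 2.06.

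**Figure D2:**
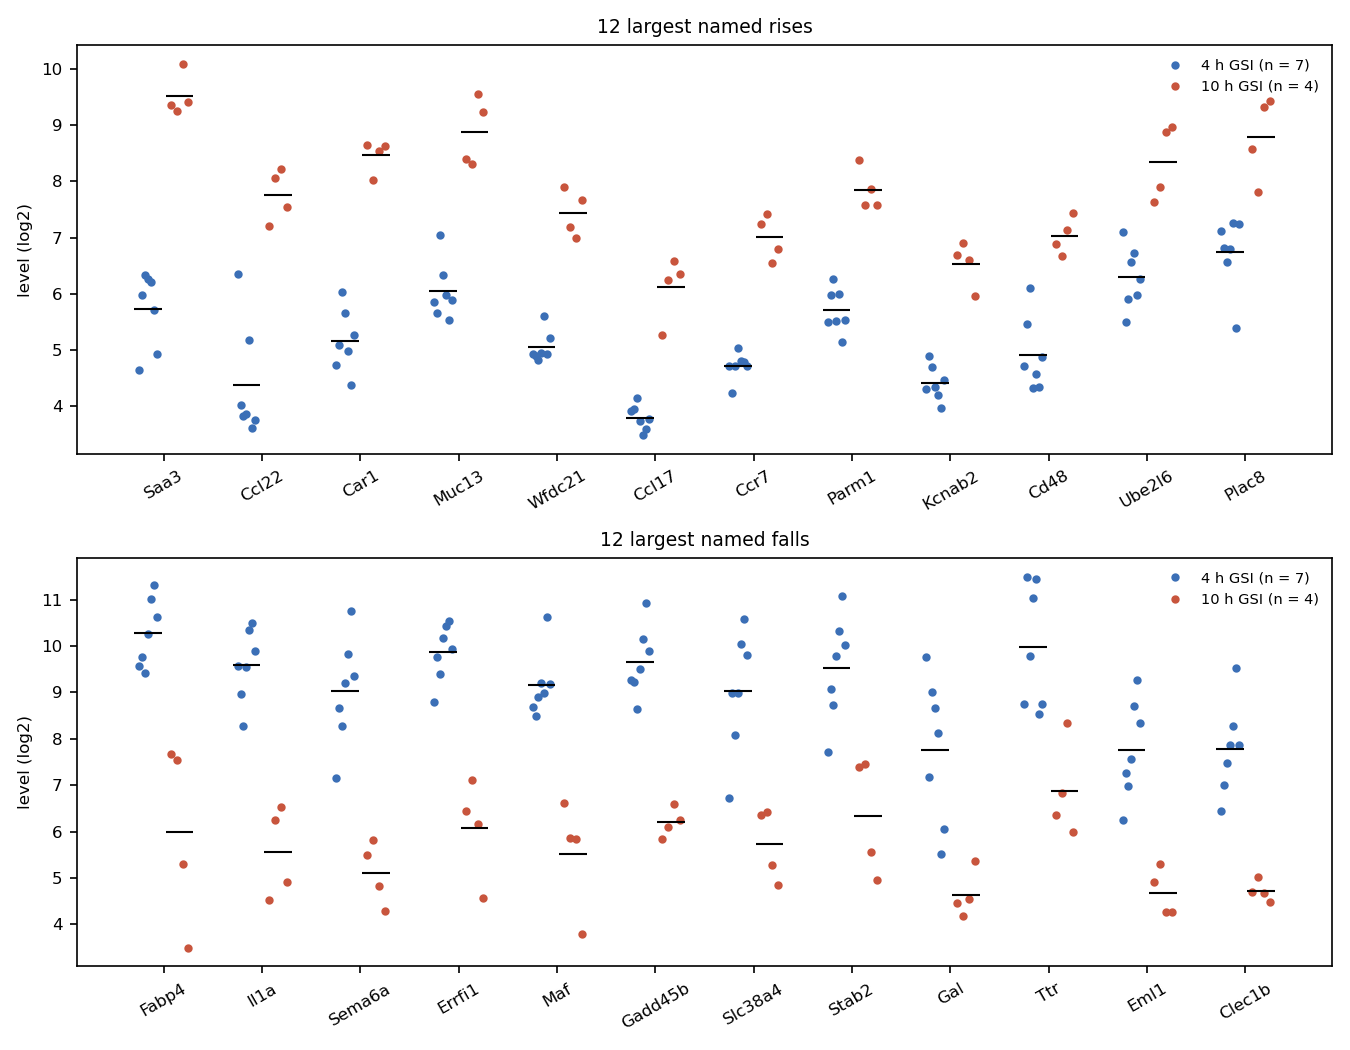
Level (log2, quantile normalized) of the 12 leading rises (upper panel) and the 12 leading falls (lower panel) in each GSI array, with 7 points for 4 h in blue, 4 points for 10 h in red and bars at the group means. No gene shown has overlapping groups, which the rule for choosing them required; Fabp4 spreads from 3.49 to 7.67 within the 4 arrays of 10 h, while Saa3 stays between 9.25 and 10.1.

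The largest falls included genes known from adipocytes and stroma, endothelium and liver cells. Fabp4, a fatty acid carrier of adipocytes, endothelium and macrophages, read 7.67, 7.54, 5.30 and 3.49 at 10 h and 9.41 to 11.3, with a median of 10.3, at 4 h. It fell 19.4-fold (change -4.28 ± 0.69, limma adjusted p = 0.00075), and at 10 h replicates 1 and 2, of 1 run, lay above replicates 3 and 4, of the other. Stab2, a scavenger receptor of liver sinusoidal endothelium, read 7.39, 7.45, 5.55 and 4.95 at 10 h and 7.71 to 11.1 at 4 h, where replicate 1 was lowest and replicate 6 highest, a change of -3.19 ± 0.62. Ttr, the thyroid hormone carrier secreted by hepatocytes, changed by -3.09. Maf, a transcription factor of macrophages and sinusoidal endothelium, changed by -3.63, and Clec1b, the podoplanin receptor of platelets and some myeloid and endothelial cells, by -3.06. The other leading falls were Il1a, the inflammatory cytokine interleukin 1 alpha (-4.03 ± 0.46), Sema6a, a transmembrane semaphorin (-3.93), Errfi1, a feedback inhibitor of the EGF receptor (-3.79 ± 0.43), Gadd45b, a stress-induced growth arrest protein (-3.46 ± 0.34), the amino acid transporter Slc38a4 (-3.30), the neuropeptide galanin, Gal (-3.12), and the microtubule-binding protein Eml1 (-3.08).

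Markers of cells that are not blood fell together with these genes. Stab2, Fabp4 and Ttr of the leading falls are themselves members of the endothelial, stromal and hepatocyte lists, in that order. Of 21 endothelial genes 19 fell and 0 rose, with a median change of -1.82. Their summed linear signal ranged from 2844 to 5611 at 10 h and from 6492 to 25823 at 4 h, lowest in replicate 1 and highest in replicate 6. Plvap, the protein of endothelial fenestrae, read 5.83, 5.54, 5.55 and 5.19 at 10 h and 7.09 to 8.67 at 4 h, a change of -2.17 ± 0.26 (limma adjusted p = 0.00012). Cdh5, the cadherin of endothelial junctions, averaged 8.23 at 10 h and 10.7 at 4 h. No marker is at 0 on an array, and fetal stem cells themselves transcribe some of these genes: Tek, Esam and Sox17, 3 of the 21, also stand in the lists of stem cell genes.

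Of 29 genes of OP9 and similar stroma 22 fell and 0 rose (median -1.50), and of 18 hepatocyte genes 8 fell and 0 rose (median -1.63). The stromal genes summed to 2213 to 6790 at 10 h and 8050 to 17256 at 4 h. Ccn1, a secreted matrix protein in this list, fell by 2.77 ± 0.33 on the log2 scale, from a 4 h median of 9.07 to 5.31 to 6.73 at 10 h. Which cells its RNA came from was not tested. Col1a1, the main collagen chain of stroma, was not called (6.27 at 10 h and 7.28 at 4 h, limma adjusted p = 0.16). The hepatocyte genes summed to 639 to 3256 at 10 h, highest in replicate 3, and 1916 to 13948 at 4 h. Alb, serum albumin, averaged 6.75 at 10 h and 9.14 at 4 h (change -2.39, limma adjusted p = 0.031), and 13 of the 18 genes fell when replicate 6 was left out.

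Of 20 macrophage genes 10 fell and 1 rose (median -0.90), with sums of 1715 to 2733 at 10 h and 3135 to 7872 at 4 h. Mertk, the receptor for dying cells, read 3.94, 4.30, 3.88 and 3.79 at 10 h and 6.19 to 8.41 at 4 h (change -2.98 ± 0.37). Mrc1, the mannose receptor shared by macrophages and sinusoidal endothelium, fell by 2.98 ± 0.51. Adgre1, a surface receptor used as a macrophage marker, was not called (6.51 at 10 h, 5.98 at 4 h). The levels of these 4 marker lists moved with time and run beside all groups of genes described next, and their part in those results was not tested further than as follows. When the mean endothelial level of each array was added to the fit as a covariate, chosen after seeing the data, 755 genes were higher and 618 lower at 10 h. The covariate ran from 6.31 to 7.45 at 10 h and from 7.58 to 9.84 at 4 h with no overlap, so its part and that of time cannot be told apart. In this fit 37 of the 39 gene lists had fewer calls by over 1.5 times and 10 had none. Cholesterol genes had more calls. Some list medians fell further in it, among them stem cell transcription factors (from -0.10 to -0.62), inflammation (from -0.86 to -1.45) and macrophage genes (from -0.90 to -1.54).

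**Figure D3:**
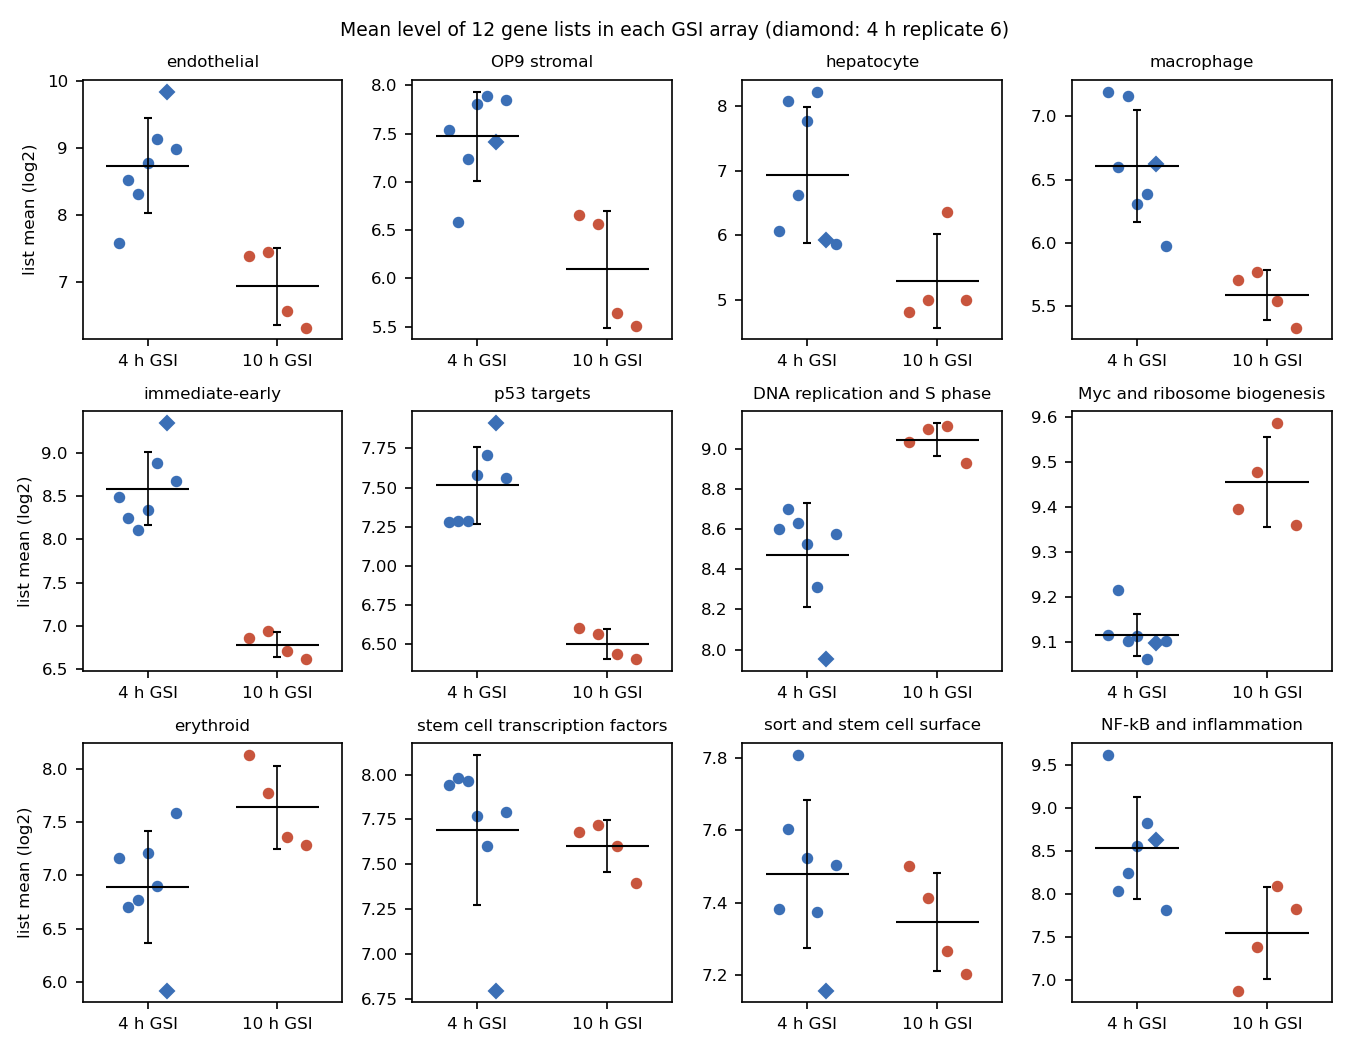
Mean level (log2) of 12 gene lists in each GSI array, with 7 points for 4 h in blue (replicate 6 as a diamond), 4 points for 10 h in red, bars at the mean and whiskers of 1 SD. Endothelial, stromal, immediate-early and p53 means lie lower at 10 h, replication and ribosome biogenesis means lie higher, and replicate 6 is highest for endothelial genes (9.84) and lowest for stem cell transcription factors (6.80).

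Immediate-early genes fell as a group. All 24 measured members had a change below 0, 21 were called lower and 0 higher, and 20 had 10 h values below every 4 h value. Of all genes 17% were called lower and 10.9% had 10 h values below every 4 h value. The list mean was 6.86, 6.95, 6.71 and 6.62 at 10 h and 8.11 to 9.34, with a median of 8.49, at 4 h. Egr1, a zinc-finger activator, read 6.55, 7.17, 7.10 and 6.54 at 10 h and 8.94 to 10.2, with a median of 9.49, at 4 h. It fell 6.12-fold (change -2.61 ± 0.25, limma adjusted p = 3.0e-05). Btg2, an inhibitor of proliferation, read 7.19, 7.20, 7.21 and 6.73 at 10 h and 8.63 to 9.92 at 4 h (change -2.08 ± 0.21). Zfp36, which binds messages and speeds their decay, read 9.53 to 10.1 at 10 h and 11.3 to 11.9 at 4 h and fell by 1.72 ± 0.15 on the log2 scale. The list median was -1.88. With the endothelial mean as a covariate it was -1.15 and 8 of the 24 genes were called lower, and in DMSO it was -1.86.

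Promoter sequence was looked up for these genes because several are textbook targets of CREB and ATF factors, which bind the palindrome TGACGTCA. Windows from 250 bases before to 50 bases after the start of transcription came from RefSeq on GRCm38.p6, and 21 of the 24 genes had one. The palindrome was in the window of 3 of the 21 (14.3%), namely Btg2, Dusp1 and Ppp1r15a, against 2.03% of the 27025 genes with a window. The windows of Btg2 (chr1:134079106-134079405, minus strand) and of Ppp1r15a, the phosphatase subunit that restores translation after stress (chr7:45526219-45526518, minus strand), are given 5′ to 3′ with the palindrome in capitals.
Btg2: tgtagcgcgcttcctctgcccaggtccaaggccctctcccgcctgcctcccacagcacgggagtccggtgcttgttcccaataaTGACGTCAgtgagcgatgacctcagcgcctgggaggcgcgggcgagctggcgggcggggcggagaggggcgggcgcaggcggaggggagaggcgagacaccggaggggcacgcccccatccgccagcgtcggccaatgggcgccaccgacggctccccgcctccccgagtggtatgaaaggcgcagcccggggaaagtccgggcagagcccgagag
Ppp1r15a: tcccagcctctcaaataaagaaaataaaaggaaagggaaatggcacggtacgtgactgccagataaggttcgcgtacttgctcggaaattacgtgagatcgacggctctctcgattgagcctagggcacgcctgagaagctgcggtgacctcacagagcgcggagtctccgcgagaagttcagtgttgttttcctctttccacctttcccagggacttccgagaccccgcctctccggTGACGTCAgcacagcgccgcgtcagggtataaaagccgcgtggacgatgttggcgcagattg
The palindrome reads the same on both strands, and begins at base 85 of the Btg2 window and at base 239 of the Ppp1r15a window. Ppp1r15a changed by -2.11 and Dusp1, a phosphatase that switches off MAP kinases, by -1.04. Gadd45b (-3.46), Nr4a1 (-2.98), Fos (-2.67) and Atf3 (-2.43) fell more than Btg2 and held no palindrome in their windows. The palindrome was not counted in the other lists, and it also stands, in small letters, in the window of Mcm5 below, a gene that rose. A match describes the letters in the window and shows no binding. The list was searched because several members are known targets, so the share of palindromes does not bear on the change over time.

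Targets of p53, the transcription factor that answers DNA damage and other stress, also fell: 12 of 19 were lower, 0 were higher and the median change was -0.80. With the endothelial covariate 3 were called lower and the median was -0.48. Cdkn1a, which encodes the cell cycle inhibitor p21, read 8.36, 8.61, 7.90 and 7.69 at 10 h and 10.3 to 11.6, with a median of 10.9, at 4 h. The fall was 6.51-fold without overlap (change -2.70 ± 0.24, limma adjusted p = 2.3e-05). Trp53inp1, a p53 cofactor, changed by -1.87 ± 0.17 and Mdm2, the ligase that degrades p53, by -0.99 ± 0.13. The list mean ranged from 7.28 to 7.91 at 4 h, and all 4 arrays of 10 h lay lower. Of 14 genes of the Bcl2 family, which set the threshold for cell death, 6 fell and 1 rose (median -0.39). Among all genes 17% fell and 19.1% rose. Bmf, a death-promoting member, fell by 1.22 ± 0.16 and Mcl1, a survival member, by 0.67 ± 0.14 on the log2 scale.

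Genes of DNA replication rose. Of 22 measured genes 17 were higher at 10 h and 0 lower, all 22 changes were above 0, and the median change was 0.56. The list mean was 9.04, 9.10, 9.12 and 8.93 at 10 h and 7.95 to 8.70, with a median of 8.58, at 4 h, where replicate 6 was lowest. Ccne1, the cyclin that starts S phase, read 8.30, 8.24, 8.34 and 8.43 at 10 h and 6.67 to 7.52, with a median of 7.34, at 4 h. It rose 2.06-fold (change 1.04 ± 0.15, limma adjusted p = 0.00038), and by 0.94 without replicate 6. Pola1, the catalytic subunit of the polymerase that primes replication, rose by 0.86 ± 0.12, Mcm10, a factor for loading that polymerase, by 0.71 ± 0.10 and Pcna, the sliding clamp, by 0.35 ± 0.05. The rises were small beside the falls above, and with the endothelial mean as a covariate the list median was 0.23 and 0 genes were called.

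E2F factors are known to drive this gene set, so the same windows were searched on both strands for the E2F core sites TTTCCCGC, TTTGGCGC, TTTCGCGC and TTTGCCGC. Of 19 replication genes with a window 9 held at least 1 site (47.4%), against 2.6% of the 27025 genes with a window. The windows of Mcm6 (chr1:128359656-128359955, minus strand) and Mcm5 (chr8:75109259-75109558, plus strand), subunits of the replicative helicase, are given 5′ to 3′ with the sites in capitals.
Mcm6: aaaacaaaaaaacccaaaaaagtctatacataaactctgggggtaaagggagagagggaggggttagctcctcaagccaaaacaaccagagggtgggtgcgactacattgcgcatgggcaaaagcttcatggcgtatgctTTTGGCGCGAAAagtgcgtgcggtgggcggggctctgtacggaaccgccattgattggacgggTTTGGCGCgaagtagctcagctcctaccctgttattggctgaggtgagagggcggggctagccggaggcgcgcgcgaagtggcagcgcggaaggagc
Mcm5: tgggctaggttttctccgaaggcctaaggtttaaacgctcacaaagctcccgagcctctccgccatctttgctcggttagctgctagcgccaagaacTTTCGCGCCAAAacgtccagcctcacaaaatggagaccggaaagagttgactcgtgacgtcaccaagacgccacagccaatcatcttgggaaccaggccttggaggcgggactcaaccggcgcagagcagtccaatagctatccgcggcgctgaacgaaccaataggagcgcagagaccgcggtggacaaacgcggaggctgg
Mcm6 held 3 matches, at bases 141, 145 and 204, of which the first and second overlap on opposite strands, and Mcm5 held 2 overlapping matches, at bases 98 and 102. Mcm6 averaged 10.4 at 10 h and 9.77 at 4 h, and Mcm5 8.83 and 8.14. The other holders were Cdc6, Mcm3, Mcm7, Pola1 and Pold1, which rose, and Cdt1 and Uhrf1, which were not called. Genes without a site rose too, among them Ccne1 (1.04), Tyms (0.89) and Mcm10 (0.71). The list is one that E2F is known to drive, so the share of sites does not bear on the change over time.

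Of 25 mitosis genes 6 rose and 0 fell (median 0.19), beside 19.1% of all genes that rose. Ttk and Bub1, kinases of the spindle checkpoint, rose 1.91-fold and 1.54-fold. Among 15 D cyclins, their kinases and inhibitors, 3 rose and 3 fell, beside 17% of all genes that fell. Cdk6, the G1 kinase, read 9.73, 9.81, 10.2 and 9.96 at 10 h and 8.50 to 8.99 at 4 h, a rise of 1.09 ± 0.11. Rbl1, the retinoblastoma relative p107, rose by 0.95 ± 0.15, and Cdkn2c, an inhibitor of Cdk4 and Cdk6, fell by 0.97 ± 0.18 on the log2 scale.

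Of 23 Myc targets and ribosome biogenesis genes 13 rose and 0 fell (median 0.29). Srm, the spermidine synthase that is a classical Myc target, read 10.6 to 11.2 at 10 h and 9.86 to 10.3 at 4 h (change 0.88 ± 0.12, limma adjusted p = 0.00026). Mybbp1a, a nucleolar protein, rose by 0.87 ± 0.11 and Cad, the enzyme that starts pyrimidine synthesis, by 0.93 ± 0.17. Myc itself fell by 0.51 ± 0.15 on the log2 scale, with 9.66 to 9.89 at 10 h and 9.86 to 10.8 at 4 h and overlapping groups. Of 22 ribosomal protein genes 3 rose and 0 fell (median 0.02). Of 21 genes of oxidative phosphorylation 7 rose and 0 fell (median 0.25), and of 21 glycolysis and hypoxia genes 5 rose and 2 fell. Among all genes 19.1% rose and 17% fell. Hk1, the housekeeping hexokinase, rose by 1.02 ± 0.12 (7.55 to 7.74 at 10 h, 6.40 to 6.91 at 4 h), and Pdk1, which keeps pyruvate out of mitochondria, by 1.13 ± 0.21.

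Protein-folding genes had calls in both directions, as did all genes, of which 19.1% rose and 17% fell. Of 11 heat shock genes 4 rose and 2 fell. The chaperones Hsph1 and Hspa4l rose by 0.97 ± 0.18 and 0.78 ± 0.14, while Bag3, a stress-induced co-chaperone, changed by -1.69 ± 0.20. Of 17 genes of the unfolded protein response, the answer to misfolded protein in the endoplasmic reticulum, 5 rose and 3 fell. Sdf2l1 and Hyou1, both chaperones of that compartment, rose by 0.93 ± 0.15 and 0.82 ± 0.16, while Herpud1, a part of its degradation machinery, changed by -1.05 ± 0.17. Of 18 amino acid stress genes 7 fell and 1 rose; Sesn2, an inhibitor of mTORC1, fell 4.04-fold (change -2.01 ± 0.26).

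Genes that define the sorted population did not move as 1 group. Of 22 genes of the sort and of the stem cell surface 3 rose, 6 fell and 13 were not called, beside 19.1% of all genes that rose and 17% that fell. Kit averaged 9.53 at 10 h and 9.93 at 4 h (change -0.40, 95% interval -0.76 to -0.05, limma adjusted p = 0.071), and Cd34 averaged 10.6 and 10.7. Slamf1, the CD150 of the gate, read 5.29, 5.16, 5.66 and 5.44 at 10 h and 3.29 to 4.43, with a median of 3.85, at 4 h. It rose 2.90-fold without overlap (change 1.54 ± 0.18, limma adjusted p = 9.8e-05). Without detection calls it is not known whether its 4 h values stand above background, although the usual gate takes cells with the protein. Il7r, the interleukin 7 receptor of lymphoid progenitors, rose by 0.74 ± 0.08 at a low level (3.88 to 3.99 at 10 h). Procr, the protein C receptor EPCR that marks long-term stem cells and endothelium, read 7.63, 7.64, 6.57 and 7.08 at 10 h and 8.70 to 9.81 at 4 h, a 3.74-fold fall (change -1.90 ± 0.26). Ly6a, which encodes Sca-1, had no probe with a single symbol and is not analysed here.

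Of 33 stem cell transcription factors 2 rose and 9 fell (median -0.10), beside 19.1% of all genes that rose and 17% that fell. Bmi1, a Polycomb protein needed for self-renewal, read 5.28, 5.33, 5.38 and 5.26 at 10 h and 6.04 to 6.41 at 4 h, a change of -0.88 ± 0.10 (limma adjusted p = 9.6e-05). Hoxa5 changed by -0.93 ± 0.16. Lin28b, the RNA-binding protein that marks fetal stem cells, rose by 1.24 ± 0.24, from a 4 h median of 5.67 to 6.62 to 6.85 at 10 h. Replicate 6 at 4 h was far below the other 4 h arrays for several of these genes: Meis1 read 6.89 there and 9.12 to 9.69 elsewhere at 4 h, Hoxa9 5.09, Hlf 5.79 and Mecom 7.15. With it, Hoxa9 (0.32, interval -0.72 to 1.36), Meis1 (0.20, interval -0.76 to 1.16), Hlf (-0.47, interval -1.53 to 0.58) and Mecom (-0.56, interval -1.28 to 0.16) were not called. Without it, Mecom changed by -0.79 and Hlf by -0.85 (limma adjusted p = 0.011 and 0.019), Hoxa9 and Meis1 were still not called, and the list counted 3 rises and 11 falls with a median of -0.21. Flt3, the receptor of multipotent progenitors, was not called (0.76, interval -0.19 to 1.71).

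Some Notch pathway genes were lower at 10 h than at 4 h in GSI, and they were lower at 10 h in DMSO too. Hes1 (Entrez 15205, chromosome 16), the repressor used as the readout of Notch, read 5.69, 5.73, 5.68 and 5.66 at 10 h and 5.94 to 8.79, with a median of 6.91, at 4 h. The 10 h arrays lay within 0.07 of each other and the 4 h arrays spread widely, with replicate 1 lowest and replicate 6 highest. The change was -1.53 ± 0.41 (limma adjusted p = 0.012), -1.27 without replicate 6, and 0.23 with the endothelial mean as a covariate, under which it was not called. Hey1, a related repressor, read 5.07 to 5.57 at 10 h and 5.63 to 7.54 at 4 h (change -0.94 ± 0.29, and 0.0050 with that covariate). In DMSO it changed by -1.16. Nrarp, the feedback inhibitor of the Notch complex, and Dtx1, a ubiquitin ligase of the pathway, were not called, with changes of -0.24 (interval -0.77 to 0.29) and 0.02 (interval -0.27 to 0.31). Of 14 Notch targets 7 fell and 3 rose (median -0.34), beside 17% of all genes that fell and 19.1% that rose. With that covariate 2 of the targets fell, 0 rose and the median was 0.11. In DMSO 7 of them fell and 2 rose, with a median of -0.33. The called falls in the list that were largest belonged to Id3, an inhibitor of basic helix-loop-helix factors, and Cdkn1a, which are also regulated by other pathways: Id3 read 5.47 to 5.70 at 10 h and 7.72 to 9.87 at 4 h.

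Of 21 receptors, ligands and partners of Notch 11 fell and 0 rose (median -0.54), and with the endothelial covariate 2 fell and the median was -0.24. In DMSO 9 of them fell and 0 rose, with a median of -0.61, and Notch1 changed by -1.26 and Rbpj by -0.61. Notch1 read 6.99, 7.28, 6.92 and 7.03 at 10 h and 7.54 to 8.93, with a median of 8.10, at 4 h, a 2.17-fold fall (change -1.12 ± 0.21, limma adjusted p = 0.0018). Notch2 was not called (-0.08, interval -0.61 to 0.44). Rbpj, the DNA-binding partner, changed by -0.51 ± 0.11, Maml2, a coactivator, by -1.49 ± 0.25 and Itch, a ligase that degrades Notch, by -0.45 ± 0.09. Among 7 genes of gamma-secretase and the ADAM proteases 1 was called: Aph1b, a subunit of gamma-secretase, fell by 0.74 ± 0.09 on the log2 scale. Endothelial and stromal cells can carry Notch receptors and ligands, and their markers were lower in the same arrays. The part of such cells in the falls of Hes1, Hey1 and these genes was not tested. The covariate did not overlap between the times, so its fit cannot show that part.

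Genes of inflammation fell more often than they rose, and most interferon genes were not called. Of 19 NF-kB and inflammation genes 9 fell and 0 rose (median -0.86). Rel, an NF-kB subunit, read 7.85, 7.91, 8.14 and 8.03 at 10 h and 9.39 to 10.4 at 4 h (change -1.83 ± 0.17, limma adjusted p = 3.0e-05). Icam1, an adhesion molecule, changed by -2.44 ± 0.34 and Cxcl1, a neutrophil chemokine, by -2.73 ± 0.41. The chemokines Ccl22 and Ccl17 moved the other way, as described above. Of 19 interferon response genes 1 fell and 0 rose, and the arrays spread widely: Oasl2 read 8.10, 7.77, 9.64 and 9.85 at 10 h, where replicates 3 and 4 share a run, and 5.63 to 9.25 at 4 h (change 1.71, interval 0.13 to 3.29, limma adjusted p = 0.084). Of 17 cytokine receptors 7 fell and 2 rose. Tnfrsf1a, the main TNF receptor, fell 1.84-fold, while Epor, the erythropoietin receptor, and Csf2ra, the GM-CSF receptor, rose 1.85-fold and 1.60-fold. Of 13 JAK-STAT genes 4 fell and 1 rose, and 4 fell and 0 rose without replicate 6 of 4 h. Among all genes 17% fell and 19.1% rose. Bcl6, a transcriptional repressor, changed by -1.44 ± 0.16.

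Genes of TGF-beta signalling and imprinted genes followed. Of 15 TGF-beta and BMP genes 10 fell and 0 rose (median -0.56). Skil, a feedback inhibitor of Smad proteins, read 6.32, 6.59, 6.48 and 6.16 at 10 h and 8.13 to 9.11 at 4 h, a 4.24-fold fall, and Tgfbr2, the type II receptor, fell too (limma adjusted p = 0.0010). Of 12 imprinted growth genes, which are expressed from 1 parental allele, 7 fell and 2 rose (median -0.85). Igf2, the fetal growth factor, read 6.29, 6.03, 6.17 and 5.41 at 10 h and 7.64 to 8.44, with a median of 8.18, at 4 h (change -2.18 ± 0.19, limma adjusted p = 1.9e-05). Igf2 is also made by hepatocytes and stroma, whose markers fell in the same arrays. Plagl1 changed by -2.39 ± 0.41 and Grb10, an adaptor that restrains insulin signalling, by -0.79 ± 0.13.

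Of 18 lysosome and autophagy genes 12 fell and 2 rose (median -0.63); with the endothelial covariate the median was -0.22 and 0 were called. Sqstm1, the autophagy receptor p62, read 8.26, 8.47, 7.89 and 7.88 at 10 h and 9.95 to 10.8 at 4 h, a 4.42-fold fall (change -2.14 ± 0.17, limma adjusted p = 9.3e-06). Of 15 Nrf2 genes, the answer to oxidative stress, 5 fell and 2 rose, beside 17% of all genes that fell and 19.1% that rose. Hmox1, the haem oxygenase that is also abundant in macrophages, changed by -2.94 ± 0.41. Of 17 circadian clock genes 9 fell and 2 rose (median -0.50), among them Nr1d2, a repressor of the clock, with 6.28 to 6.54 at 10 h and 6.72 to 8.55 at 4 h. Of 11 glucocorticoid response genes 5 fell and 0 rose; Sgk1, a kinase induced by the hormone, fell 5.35-fold. Of 20 cholesterol genes 1 fell and 0 rose, and 5 fell and 1 rose without replicate 6. Abca1, the exporter of cholesterol, was the one that fell in the fit of all 11 arrays, by 2.19 ± 0.28 on the log2 scale. With the endothelial covariate 13 of the cholesterol genes fell and 0 rose, and their median went from -0.16 to -1.56.

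Among lineage genes the erythroid list rose. Of 16 measured genes 8 were higher and 0 lower (median 0.77), while with the endothelial covariate the median was 0.59 and 0 were called. Their summed signal ranged from 4758 to 6374 at 10 h and from 1475 to 5415 at 4 h, lowest in replicate 6. Gata1, the master regulator of red cell and platelet formation, read 7.98, 7.89, 8.08 and 8.01 at 10 h and 5.57 to 7.31, with a median of 6.83, at 4 h (change 1.24 ± 0.28, and 1.04 without replicate 6). Tfrc, the transferrin receptor, rose by 0.81 ± 0.17 and Tspo2, a membrane protein of late red cell precursors, by 1.60 ± 0.28. The measured globin genes of the list, Hbb-bh1, Hbb-y and Hba-x, were not called. Of 17 megakaryocyte genes 1 rose and 4 fell, and of 21 neutrophil and monocyte genes 1 rose and 3 fell, beside 17% of all genes that fell.

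The mast cell list counted 4 rises and 1 fall of 16, led in size by Cpa3, a granule protease (change 1.29 ± 0.35, overlapping groups). Early T cell genes counted 3 rises and 3 falls of 13, beside 19.1% of all genes that rose and 17% that fell. Cd3g, a chain of the T cell receptor complex, read 3.64 to 4.25 at 10 h and 3.17 to 3.72 at 4 h, and Cd3e, its partner, 3.46 to 3.69 and 3.72 to 4.15. B cell genes counted 5 rises and 3 falls of 13. Vpreb1, a part of the pre-B cell receptor, read 4.18, 4.46, 4.30 and 4.67 at 10 h and 3.20 to 3.60 at 4 h (change 0.97 ± 0.11), while Ebf1, a B cell factor that stromal and fat precursors also express, changed by -2.32 ± 0.33. Cd3g, Cd3e and Vpreb1 read below the array median of 4.86. Without detection calls it is not known whether they stand above background. The B cell median was 0.20, and -0.33 among genes above the median level.

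The DMSO arrays give the change over the same hours without the inhibitor. In DMSO 4154 genes were higher and 3367 lower at 10 h. Of the 8004 genes called in GSI, 7894 (98.6%) had a change of the same sign in DMSO, against 84.7% of all genes, and the changes correlated with r = 0.921 across the 22180 genes, which are not independent of each other and share the runs. The difference of the changes, GSI minus DMSO, was fitted to all 22 arrays with each DMSO and GSI pair as a block. By limma, 0 genes (0%) passed, 1881 had an unadjusted p under 0.05, and the lowest adjusted p was 0.062. The 95% interval of the difference had a median half-width of 0.31.

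**Figure D4:**
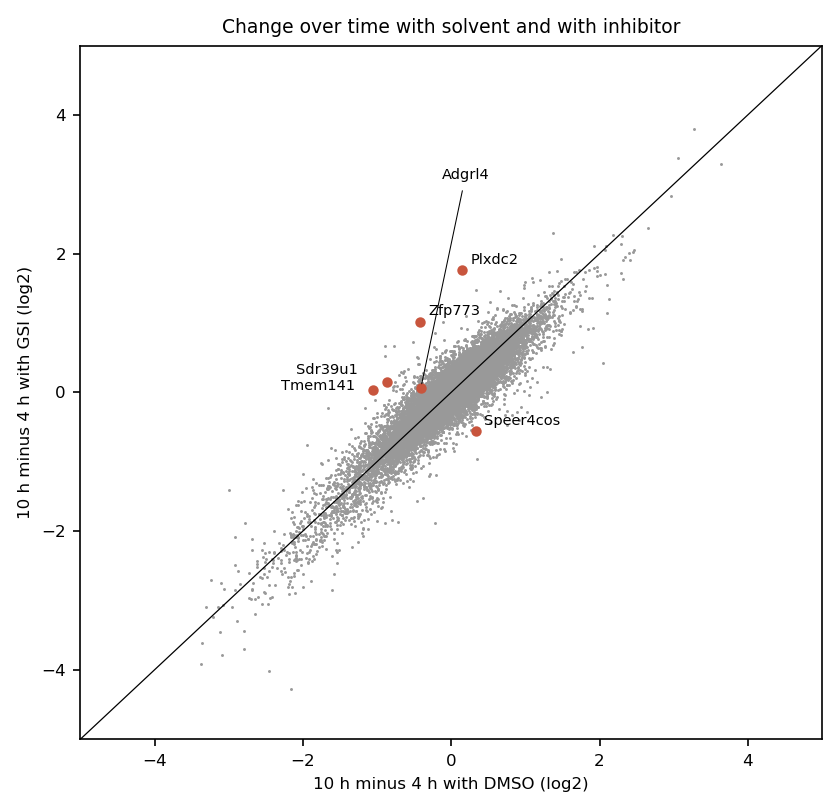
Change from 4 h to 10 h with GSI (log2, vertical axis) against the change with DMSO (log2, horizontal axis) for 22180 genes, with the line of equal change and the 6 genes of smallest p for the difference in red. Points follow the line (r = 0.921), and Plxdc2 lies above it, with 0.15 in DMSO.

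The 6 genes with the smallest p for this difference did not pass and are given as values. Plxdc2, a transmembrane plexin-domain protein, read 8.35, 7.94, 8.00 and 7.57 at 10 h in GSI and 4.95 to 7.59, with a median of 5.94, at 4 h, with 1 array overlapping. It rose by 1.77 ± 0.39 in GSI (limma adjusted p = 0.0040), with a change of 0.15 in DMSO, and the difference was 1.61 (interval 1.10 to 2.13, limma adjusted p = 0.062). Inside the pairs, GSI minus DMSO ran from 1.59 to 2.84 at 10 h and from 0.0034 to 1.15 at 4 h, without overlap. Genes picked by a low p for this difference are likely to show such a gap, so it adds no support. Zfp773, a zinc-finger gene, rose by 1.03 ± 0.23 in GSI and changed by -0.42 in DMSO, a difference of 1.44 (interval 0.98 to 1.89). Tmem141 and Sdr39u1, genes of little-studied proteins, had differences of 1.09 (interval 0.74 to 1.45) and 1.00 (interval 0.67 to 1.34), with changes in GSI of 0.04 and 0.14 and in DMSO of -1.06 and -0.86. Adgrl4, an adhesion receptor of endothelium and stem cells, and Speer4cos, a noncoding transcript, had differences of 0.47 and -0.90.

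For Hes1 the change over time was -1.20 in DMSO, and the difference between the changes was -0.33 (interval -0.65 to -0.0031, limma adjusted p = 0.58). For Notch1 the difference was 0.14 (interval -0.15 to 0.43), for Saa3 0.53 (interval -0.52 to 1.57), for Ccne1 0.25 (interval -0.04 to 0.53) and for Cdkn1a -0.53 (interval -0.89 to -0.18), none of which passed. Fabp4 had the widest gap among the 24 leading genes, with a change of -2.16 in DMSO and a difference of -2.11 (interval -3.38 to -0.85, limma adjusted p = 0.44). The list of stromal genes had a median of -0.67 in DMSO, where 9 fell and 1 rose, and -1.50 in GSI, from separate fits. In the paired fit the median difference of its 29 genes was -0.48, and 0 of them passed.

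**Figure D5:**
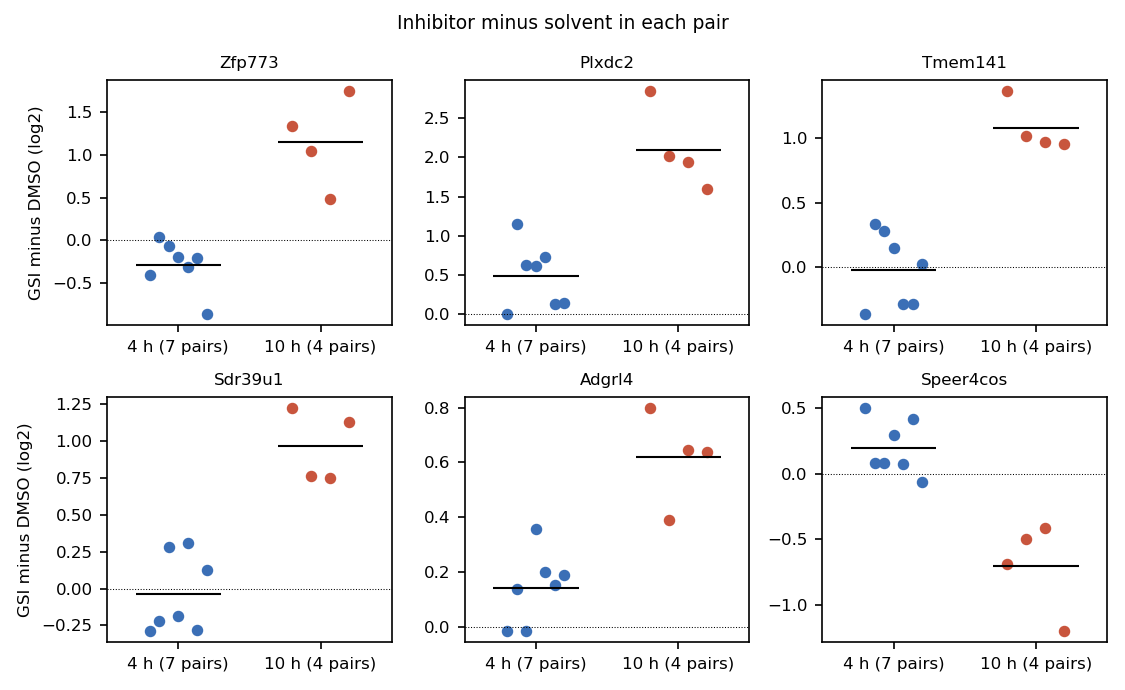
GSI minus DMSO (log2, vertical axis) in each of the 7 pairs of 4 h (blue) and the 4 pairs of 10 h (red) for the 6 genes with the smallest p for the difference between times, with bars at the means and a dotted line at 0. None of the 6 passed, and their choice by this p favours a gap between the times. For Plxdc2 the pairs run from 0.0034 to 1.15 at 4 h and from 1.59 to 2.84 at 10 h.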

How the data were processed

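The values are log2 expression as deposited. The submitters' processing notes name Partek 6.6 and RMA for them, and do not say whether the authors ran RMA on each time separately. There were no detection calls to set a lower limit of signal, and precision is limited by how many arrays there are. Of 41345 probes 23521 had 1 gene symbol in the platform annotation, 1814 had several and 16010 had none listed. For the 1082 genes with more than 1 such probe the one with the highest mean was kept, which gave 22180 genes, and 0 symbols changed in a mouse gene table of GRCm38.p6.

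The 11 GSI arrays were quantile normalized and fitted with limma 3.58.1 in R 4.3.3 (lmFit, eBayes with intensity trend, 2-sided, Benjamini-Hochberg adjusted over all genes), without a replicate block. Replicate numbers do not pair the times: deviations of same-numbered 4 h and 10 h arrays correlated at -0.186 to 0.114. GSI and DMSO samples are paired by the series' design text, and their deviations correlated at 0.196 to 0.874. The replicates are called biological there. List means average log2 values, and summed signals add the linear values.

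The text names the 12 largest rises and falls without overlap, leaving out unnamed gene models, the 6 smallest p for the difference, up to 4 members per list with the smallest p and a fixed set of Notch and stem cell genes. Standard markers such as Alb, Cdh5, Col1a1, Adgre1 and Cd34, and the Mcm genes and Ppp1r15a with their promoters, were added after their values were seen. The members and the 39 lists were chosen with earlier results of these data known. No list was tested as a set.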

Additional observations from a re-analysis of the deposited data

Results flagged for a closer look

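Within groups of 4 or 7 arrays, a highest or lowest array was looked for whose gap to its nearest neighbour was a large part of the group's range (Dixon's 95% limit). Of 174 groups checked over leading genes, named genes and list means, 18 held such an array, and chance alone gives about 1 in 20. Of these, 10 were replicate 6 of 4 h. It was lowest for Mecom (7.15), Hlf (5.79), Meis1 (6.89), Il12a (5.61), Plac8 (5.38), the mean of stem cell transcription factors (6.80) and the mean of mitosis genes (8.63). It was highest for Maf (10.62), Speer4cos (6.71) and the mean of the Bcl2 family (7.11).

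The other 8 lay in other arrays. Replicate 2 of 10 h was lowest for Car1 (8.02) and Speer4cos (4.72). Replicate 4 of 10 h was lowest for the means of glycolysis and hypoxia genes (7.67) and of lysosome and autophagy genes (7.62), and replicate 3 of 10 h was highest for the hepatocyte mean (6.37). Replicate 2 of 4 h was lowest for Ccr7 (4.22) and highest for the mean of Myc targets and ribosome biogenesis (9.22), and replicate 1 of 4 h was highest for the mean of the unfolded protein response (8.88).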

How the results depend on the processing

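Counts of genes higher and lower at 10 h (4227 and 3777) depended on the scaling between times and on the endothelial covariate: 8345 higher after centring alone, 471 higher and 14424 lower in the deposited values, and 755 and 618 with the covariate. Cyclic loess, 22-array quantile normalization, no intensity trend and the mean of all probes stayed within 1.5 times. Run means gave 1413 and 1232, and the replicate block by shared number 2674 higher and 2591 lower. Genes above the median level gave 2239 and 2244, from fewer genes tested. Leaving out runs, chosen after seeing the data, gave 2508 and 2479 without replicates 4 to 7 of 4 h, 2691 higher without replicates 1 and 2 of 10 h, and 2278 and 1655 without replicates 3 and 4 of 10 h. Leaving out each array gave 3421 to 4263 higher and 2951 to 3866 lower. The cause of these shifts was not tested beyond the smaller numbers of arrays or genes.

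For the difference between GSI and DMSO, 4 genes passed after centring (Adgrl4, Plxdc2, Sdr39u1, Zfp773), 2 with cyclic loess (Plxdc2, Zfp773), 3 among genes above the median level (Plxdc2, Sdr39u1, Tmem141), 0 without the replicate block, and 0 to 1 when a pair was left out (Sparc without 10 h replicate 1, Zfp773 without 10 h replicate 3).

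In the deposited values these changes turned negative: Tmem141 -0.62, Dtx1 -0.60, Uqcrfs1 -0.0733, Cebpe -0.21, Ms4a2 -0.0316, Cd2 -0.12, and the list medians of the unfolded protein response (-0.29), oxidative phosphorylation (-0.0909), glycolysis and hypoxia (-0.28), mitosis (-0.25) and B cells (-0.26, and -0.33 among genes above the median level). Of the 39 list medians, a further 28 moved by more than 1 SD between arrays in the deposited values, 12 after centring and 23 with the endothelial covariate, which turned the sign of 7, among them Notch targets (0.11) and interferon response (-0.73). After centring, Cma1 read 0.0098. With the endothelial covariate, Sdr39u1 read -0.94, Hes1 0.23, Hey1 0.0050, Myc 0.0556, Itgal -1.31, Sox17 0.0666, Jak2 0.24, Irf8 0.22, Ctsl 0.0486 and Klf4 0.12. The cause was not tested. No detection calls limit how far low signals can be read.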
